A study of Mus musculus with 3 samples.

Results

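The Hox cluster genes encode homeodomain transcription factors and lie in 4 clusters, Hoxa on chromosome 6, Hoxb on chromosome 11, Hoxc on chromosome 15 and Hoxd on chromosome 2 of the mouse. They were taken as every array probe whose accession belonged, in the RefSeq gene table, to a symbol made of Hoxa, Hoxb, Hoxc or Hoxd and a number from 1 to 13. Of 39 such genes in that table, 37 had a probe (11 Hoxa, 10 Hoxb, 7 Hoxc and 9 Hoxd), out of 33252 gene symbols and unnamed accessions on the array. No probe matched Hoxc6 or Hoxc11 by accession. Each gene was read by its brightest probe, and 30 of the 37 cleared background on each of the 2 arrays of some genotype and so entered the tests, among 21552 features tested in all.

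The arrays measured total RNA of whole male gonads from mouse embryos of the MCH line at embryonic day 14.5. There were 3 genotypes: Cyp26b1+/+/Stra8+/+ (wild type), Cyp26b1-/-/Stra8+/+ (Cyp26b1 knockout) and Cyp26b1-/-/Stra8-/- (double knockout). Each genotype had 2 arrays, described by the series' design text as biological duplicates. The labels do not tell single embryos from pools, so the p-values cover the spread from array to array and may miss that between animals. Stra8 was deleted only together with Cyp26b1, so the double knockout shares the Cyp26b1 deletion with the Cyp26b1 knockout and there is no group that lacks Stra8 alone. CYP26B1 is the enzyme that degrades retinoic acid in the fetal testis, and STRA8 is a factor that retinoic acid induces in germ cells before meiosis. The design asks how transcripts differ when the degrading enzyme is missing, and whether they differ again when Stra8 is missing too.

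Hox genes give cells their position along the head-to-tail axis. Within a cluster the genes are numbered by paralog group, low numbers being expressed earlier and further forward and high numbers later and further back. Retinoic acid, through its nuclear receptors, is a classical inducer of the low-numbered genes in the hindbrain and in cultured cells, while posterior genes pattern the trunk, the limbs and the urogenital ducts. HOX proteins bind DNA together with TALE homeodomain partners of the Pbx and Meis families.

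Levels are given below as a percent of the 75th percentile (upper quartile) of the processed signals of the same array, always as array 1 and array 2 of a genotype. A probe's brightness depends on its sequence, so levels are compared between genotypes and not between genes. A change is a difference of genotype means on the log2 scale with its standard error (SE, n = 2 arrays per genotype), from limma fitted on all 6 arrays. "Rose" and "fell" are used for genes with a Benjamini-Hochberg adjusted p under 0.05 over all 21552 features. The 6 arrays had between 61.9% and 68.6% of probes well above background, and the 2 arrays of a genotype correlated at a Pearson r from 0.994 to 0.996 over 18971 features. Each genotype was hybridised on a slide of its own, so slide and genotype cannot be told apart. The Cyp26b1 knockout slide was also scanned on another day than the other 2.

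The probes of the targeted genes did not show the loss that the labels name. Cyp26b1 read 1636.1 and 1421.1 in wild type, 1923.4 and 1422.6 in the arrays labelled Cyp26b1 knockout, and 1721.4 and 1506.3 in those labelled double knockout, with changes of 0.12 ± 0.15 (adjusted p = 0.552) and 0.08 ± 0.15 (adjusted p = 0.771). Stra8 read 1330.1 and 531.8, then 14574.9 and 13119.2, then 6295.2 and 7037.4, so that both double knockout arrays were above both wild-type arrays. The 2 wild-type arrays lay far apart. Stra8 was lower in the double knockout than in the Cyp26b1 knockout (-1.05 ± 0.36, adjusted p = 0.0483). That call was lost without a filter on dim probes (adjusted p = 0.0717), among other settings. The position of either probe relative to its deletion is not stated, and such a probe can check the labels only if it lies in the deleted sequence. Every direction below is between arrays so labelled.

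In the arrays labelled Cyp26b1 knockout, 15 of the 30 tested Hox genes rose against wild type, 6 fell and 9 were not called. Over all features 51.2% were called in this comparison, 21.3% higher and 29.9% lower. In the arrays labelled double knockout, 13 of 30 rose and none fell, against 12.0% of all features called, 5.43% higher and 6.56% lower. The adjustment is stricter where fewer features are called, so a like change can be called in only 1 of the comparisons. Hoxc8 was called in the Cyp26b1 knockout at -0.67 ± 0.22 (adjusted p = 0.0355). Hoxd11 was not called in the double knockout at -0.88 ± 0.26 (adjusted p = 0.0694). At an added limit of a 2-fold change, 11 of 30 rose in each comparison, where 6.97% and 1.61% of all features did. These 11 include Hoxb1 and Hoxb8 by measured changes from wild-type levels that were below background and are only bounds. By those bounds neither gene is shown to reach 2-fold. The bound of Hoxb1 was under 1 in the Cyp26b1 knockout and 1.56-fold in the double knockout. That of Hoxb8 was 1.49-fold in the Cyp26b1 knockout, and none could be given in the double knockout. The median log2 change of the tested Hox genes was 0.22 and 0.36 in the 2 comparisons, beside -0.09 and -0.02 for all features. Both comparisons use the same 2 wild-type arrays. A gene that is high in one genotype only can enter the tests through that genotype, so these counts describe the tested genes, not the clusters as a whole.

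The counts were then read by cluster, without a test between clusters. Over all features 51.2% were called in the Cyp26b1 knockout and 12.0% in the double knockout. The latter share would give few calls among the genes of 1 or 2 clusters. Of 8 tested Hoxa genes, 4 rose in the Cyp26b1 knockout and 5 in the double knockout, and none fell in either. Of 10 Hoxb genes, 8 rose in each, among them Hoxb1 and Hoxb8, whose wild-type levels were below background. The 12 tested Hoxc and Hoxd genes had 3 rises and 6 falls in the Cyp26b1 knockout and no call in the double knockout. The Cyp26b1 knockout counts were 1 rise and 2 falls without wild-type array 2. There was 1 rise without Cyp26b1 knockout array 1, and there were 3 falls without Cyp26b1 knockout array 2. Hoxa and Hoxb genes of paralog groups 1 to 6 are the low-numbered ends of these 2 clusters. Of these, 10 of 11 rose in the Cyp26b1 knockout and 9 of 11 in the double knockout, with median log2 changes of 1.24 and 1.45. In the same groups, 2 of 2 tested Hoxc genes rose and 2 of 3 tested Hoxd genes fell in the Cyp26b1 knockout. None of these Hoxc and Hoxd genes was called in the double knockout. This cut was not among the ranges planned (1 to 3, 4 to 8 and 9 to 13), so it describes these values only.

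**Figure D1:**
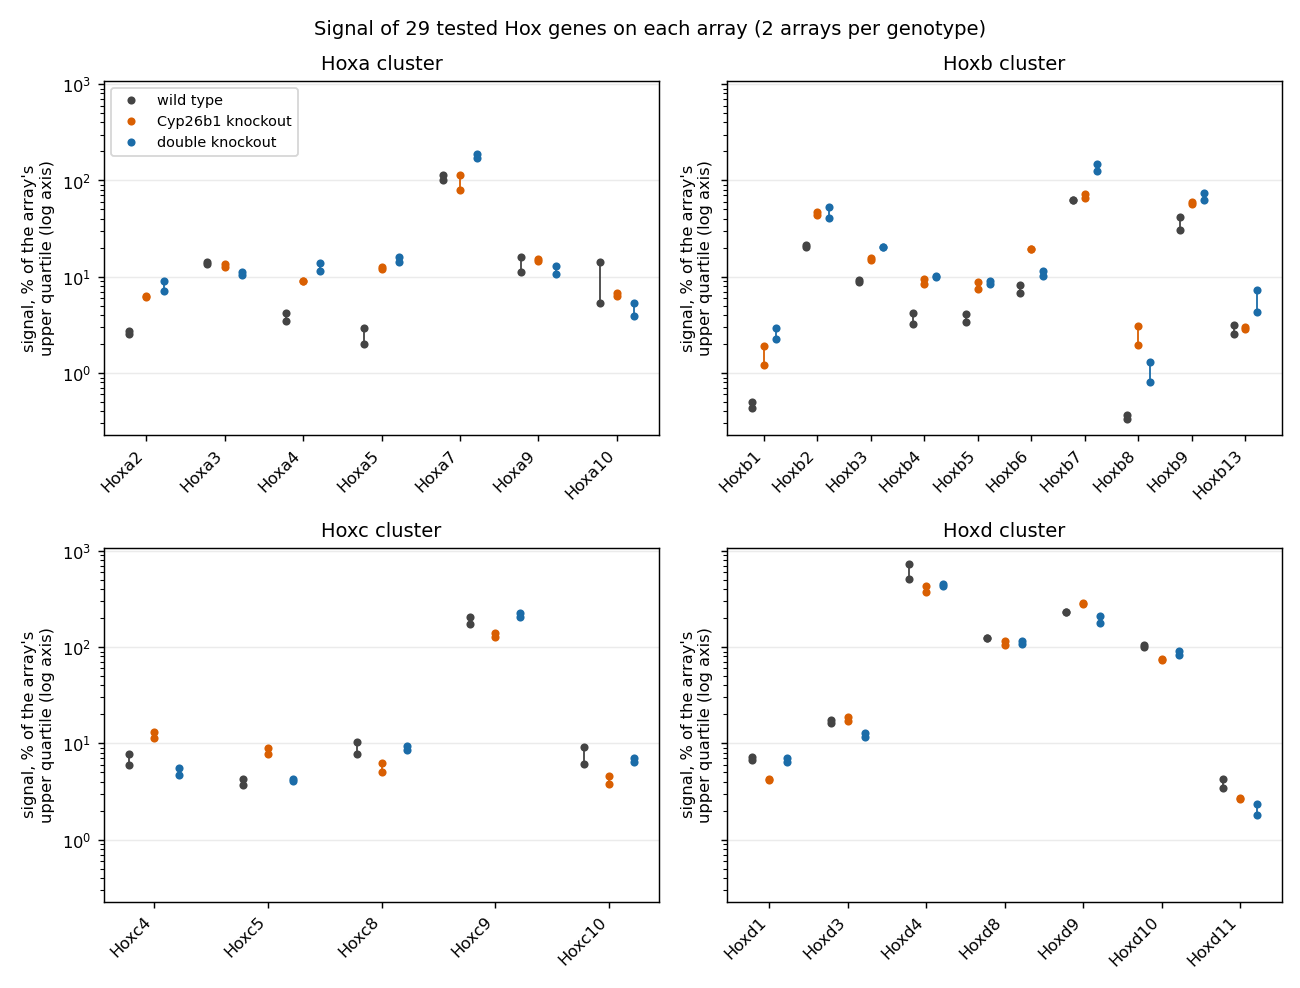
Signal of 29 of the 30 tested Hox genes on each array, as a percent of the upper quartile of that array on a log axis, with 1 point per array joined by a line within a genotype. Both arrays of both knockouts lie above both wild-type arrays at Hoxa2, Hoxa4 and Hoxa5 and at Hoxb1 to Hoxb6. The Hoxc and Hoxd genes show no common direction in the Cyp26b1 knockout. In the double knockout the mean change of each of the 7 Hoxd genes is below 0, with none called.

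Promoter sequence was read for the Hox genes that rose in both knockouts, since these moved together. The windows reached from 250 bases before to 50 bases after a start site in RefSeq GRCm38.p6, and the table held 24 windows for 22 of the 39 Hox genes, out of 32841 windows in all. Of the 11 genes that rose in both, 5 had a window. Both strands were searched for AGGTCA, a half-site of nuclear receptors, and for TGATNNAT, the core of a joint HOX and PBX site. Each of the 5 windows held exactly 1 of these motifs. The stretches that hold them are shown 5′ to 3′ on the strand of the gene, with the match in capitals. They are 250 bases before the start site for Hoxa2 (chr6:52164832-52165081, minus strand), Hoxb1 (chr11:96365508-96365757, plus strand), Hoxb4 (chr11:96318017-96318266, plus strand) and Hoxb8 (chr11:96281655-96281904, plus strand). For Hoxa5 (chr6:52204538-52204567, minus strand) they are the 30 bases around a match that begins at base 42 after the start. Hoxd4 (chr2:74721728-74721977, plus strand), which did not rise, is shown beside them because it holds AGGTCA too.
Hoxa2: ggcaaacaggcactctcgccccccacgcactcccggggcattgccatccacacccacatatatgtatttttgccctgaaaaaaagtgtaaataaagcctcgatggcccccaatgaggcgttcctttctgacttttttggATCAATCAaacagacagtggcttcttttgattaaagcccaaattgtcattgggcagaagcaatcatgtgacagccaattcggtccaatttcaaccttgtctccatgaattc
Hoxb1: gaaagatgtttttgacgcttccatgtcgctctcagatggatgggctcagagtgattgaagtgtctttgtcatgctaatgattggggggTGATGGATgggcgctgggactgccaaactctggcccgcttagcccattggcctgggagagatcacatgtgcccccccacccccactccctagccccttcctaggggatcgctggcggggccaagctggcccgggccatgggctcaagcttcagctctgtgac
Hoxb8: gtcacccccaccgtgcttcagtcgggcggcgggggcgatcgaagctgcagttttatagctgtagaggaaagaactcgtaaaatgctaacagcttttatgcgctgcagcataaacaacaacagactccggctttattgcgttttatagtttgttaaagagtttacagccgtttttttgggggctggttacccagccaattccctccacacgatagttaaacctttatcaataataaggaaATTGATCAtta
Hoxa5: agtgcacgagtttacctctagAGGTCAtca
Hoxb4: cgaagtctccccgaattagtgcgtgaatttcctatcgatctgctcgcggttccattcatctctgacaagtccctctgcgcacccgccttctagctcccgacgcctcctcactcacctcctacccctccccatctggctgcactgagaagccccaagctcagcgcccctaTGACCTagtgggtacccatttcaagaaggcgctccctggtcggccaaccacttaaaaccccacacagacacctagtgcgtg
Hoxd4: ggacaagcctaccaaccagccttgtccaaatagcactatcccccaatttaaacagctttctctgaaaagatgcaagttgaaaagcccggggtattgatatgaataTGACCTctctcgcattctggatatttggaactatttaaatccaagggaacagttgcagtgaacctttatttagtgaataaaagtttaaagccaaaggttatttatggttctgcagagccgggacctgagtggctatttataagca

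TGATNNAT was present in the windows of Hoxa2, Hoxb1 and Hoxb8, that is in 3 of the 5, and in 4 of the 24 Hox windows (16.7%), beside 8.85% of all windows. The match began 111 bases before the start in Hoxa2, 162 in Hoxb1 and 11 in Hoxb8. The 5 genes were picked by their calls in these data, so their share was not tested against that of all windows. Hoxb1 and Hoxb8 were not well above background on any wild-type array, and Hoxb8 was not on either double knockout array. AGGTCA was present in Hoxa5 and Hoxb4, in 7 of the 24 Hox windows (29.2%) and in 16.3% of all windows. It was also present in 5 of the 11 windows of Hoxc and Hoxd genes (45.5%), none of which rose in both knockouts. The retinoic acid response elements named DR1, DR2 and DR5, which are direct repeats of a half-site (AGGTCA, the variant AGTTCA, the variant GGGTCA, and also the variant GGTTCA) with spacers of 1, 2 and 5 bases, were not in any of the 24 Hox windows and were in 0.222%, 0.268% and 0.0974% of all windows. A match describes letters only, and the absence of a motif says only that these letters are not in this window. Hox windows were richer in CpG than others, with a median of 14.5 CpG dinucleotides per window beside 7 for all windows.

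Hoxb1, of the most anterior paralog group, patterns the hindbrain. It was dim, and it read 0.439 and 0.501 in wild type, where neither array was well above background, 1.89 and 1.21 in the Cyp26b1 knockout, with 1 array above it, and 2.92 and 2.28 in the double knockout, with both. The genotypes did not overlap. Its wild-type level is a bound, so the rise in the double knockout was at least 1.56-fold (adjusted p = 0.00686). Such a bound divides the brighter mean by the faintest signal that cleared background on the dim arrays. In the Cyp26b1 knockout it was called higher (adjusted p = 0.00610), but the bound is under 1, so no fold is given, and the authors' deposited table gave a log2 difference of -0.05 for the same probe. Hoxd1, of the same paralog group, went the other way: it read 6.75 and 7.18 in wild type, 4.24 and 4.19 in the Cyp26b1 knockout, and 7.0 and 6.36 in the double knockout. Hoxd1 fell in the Cyp26b1 knockout (-0.72 ± 0.18, adjusted p = 0.0134). That call was lost without wild-type array 1 (adjusted p = 0.0589), without wild-type array 2 (adjusted p = 0.0829) and with normexp background correction (adjusted p = 0.189).

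Hoxa2 and Hoxb2, the selector of the second pharyngeal arch and its paralog, both rose. Hoxa2 read 2.52 and 2.72 in wild type, 6.28 and 6.11 in the Cyp26b1 knockout, and 8.95 and 7.06 in the double knockout. Hoxb2 read 20.4 and 21.2, then 47.0 and 43.4, then 53.1 and 40.6 in the same order. For both genes all knockout arrays were above all wild-type arrays. The log2 changes were 1.24 ± 0.21 (adjusted p = 0.00240) and 1.60 ± 0.21 (adjusted p = 0.00508) for Hoxa2. They were 1.12 ± 0.15 (adjusted p = 0.000981) and 1.16 ± 0.15 (adjusted p = 0.00514) for Hoxb2.

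In paralog group 3, which patterns the throat and neck, the answer depended on the probe. The brightest Hoxa3 probe read 14.1 and 13.5 in wild type, 13.7 and 12.5 in the Cyp26b1 knockout, and 11.1 and 10.5 in the double knockout, with no call. The other Hoxa3 probe read 1.06 and 1.66, then 6.49 and 4.62, then 3.72 and 4.48. It was well above background on no wild-type array and on every knockout array, and it was at least 3.26-fold higher in the Cyp26b1 knockout (adjusted p = 0.00157) and at least 2.43-fold higher in the double knockout (adjusted p = 0.0187). In RefSeq the span of Hoxa3 overlaps those of Hoxa4, Hoxa5 and Hoxa6.

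Hoxb3 also had 2 measured probes. Its brightest read 8.81 and 9.36 in wild type, 15.1 and 15.6 in the Cyp26b1 knockout, and 20.5 and 20.2 in the double knockout, changes of 0.76 ± 0.14 (adjusted p = 0.00352) and 1.16 ± 0.14 (adjusted p = 0.00376). Its other probe read 7.53 and 8.54, then 15.4 and 16.1, then 7.98 and 7.78. Both probes were thus higher in the Cyp26b1 knockout (the other by 0.97 ± 0.16, adjusted p = 0.00217), but only the brightest was higher in the double knockout, where the other had a change of -0.03 ± 0.16 (adjusted p = 0.932). The spans of Hoxb3 and Hoxb4 overlap in RefSeq. Hoxd3 read 16.4 and 17.6, then 16.9 and 18.8, then 11.7 and 12.7, and was not called against wild type. Its other, dimmer probe was not called either (0.53 ± 0.28, adjusted p = 0.156, and -0.27 ± 0.28, adjusted p = 0.573).

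**Figure D2:**
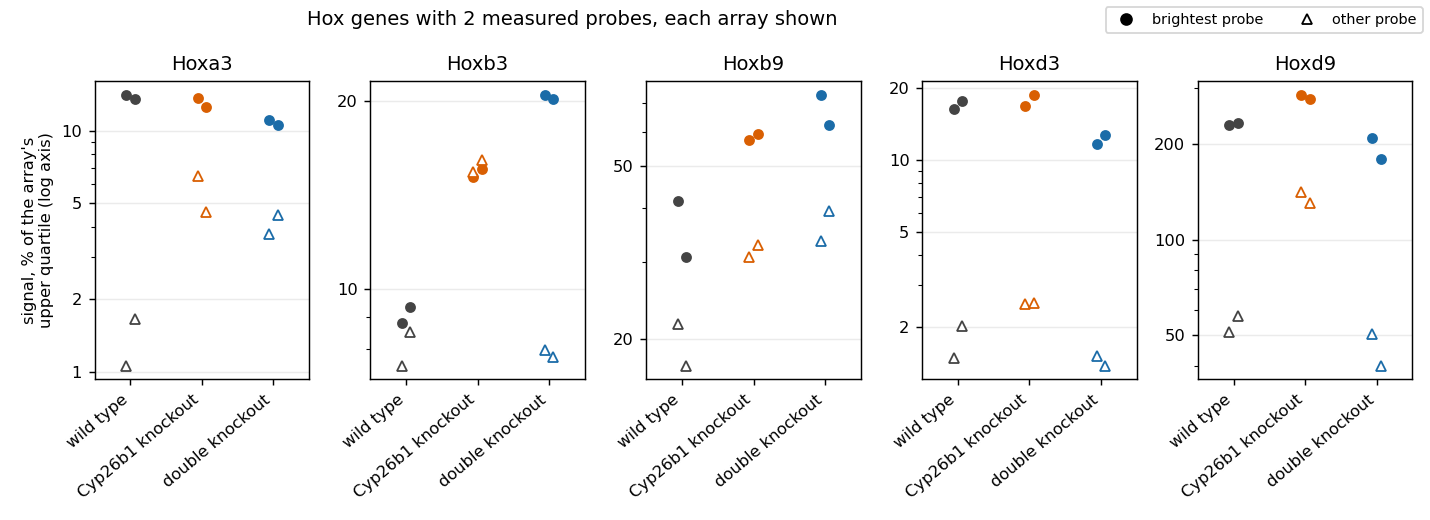
Signal of the 5 Hox genes with 2 measured probes, as a percent of the upper quartile of the array on a log axis, with filled circles for the brightest probe, open triangles for the other probe and 1 symbol per array. The probes of Hoxb9 move alike across genotypes, while those of Hoxa3 part in both knockouts and those of Hoxb3 in the double knockout. Those of Hoxd9 differ in the size of their rise in the Cyp26b1 knockout, and neither Hoxd3 probe was called against wild type.

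The group 4 genes of Hoxa and Hoxb rose together, while those of Hoxc and Hoxd did not follow them in both knockouts. Hoxa4 read 3.49 and 4.23 in wild type, 9.03 and 9.0 in the Cyp26b1 knockout, and 11.5 and 14 in the double knockout. Hoxb4, known for expanding blood stem cells, read 3.21 and 4.19, then 9.53 and 8.35, then 10.1 and 9.98. In neither gene did a knockout array overlap the wild-type arrays. The changes were 1.23 ± 0.19 (adjusted p = 0.00186) and 1.72 ± 0.19 (adjusted p = 0.00314) for Hoxa4, and 1.28 ± 0.20 (adjusted p = 0.00186) and 1.45 ± 0.20 (adjusted p = 0.00629) for Hoxb4.

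Hoxc4 rose in the Cyp26b1 knockout and was not called in the double knockout. It read 7.86 and 6.04 in wild type, 13.2 and 11.5 in the Cyp26b1 knockout, and 5.52 and 4.70 in the double knockout, changes of 0.84 ± 0.21 (adjusted p = 0.0127) and -0.44 ± 0.21 (adjusted p = 0.208). The rise was lost without wild-type array 2 (adjusted p = 0.0914) or without Cyp26b1 knockout array 1 (adjusted p = 0.0654). Hoxd4, a bright gene of the neck region, read 507.1 and 733.1, then 434.8 and 377.1, then 456.1 and 429.5. All 4 knockout arrays were below both wild-type arrays, which lay far apart from each other. Hoxd4 fell in the Cyp26b1 knockout (-0.59 ± 0.17, adjusted p = 0.0216) and not in the double knockout (-0.46 ± 0.17, adjusted p = 0.116). Both calls turned on single arrays. The first was lost without wild-type array 2 (adjusted p = 0.0952) or Cyp26b1 knockout array 2 (adjusted p = 0.110), and the second was gained without wild-type array 1 (adjusted p = 0.0397).

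Hoxa5, which is needed for lung and airway development, rose several-fold in both knockouts. It read 2.94 and 2.0 in wild type, 12.5 and 12.1 in the Cyp26b1 knockout, and 16.2 and 14.2 in the double knockout. The genotypes did not overlap, and Hoxa5 rose 5.06-fold (2.34 ± 0.22, adjusted p = 0.000286) and 6.23-fold (2.64 ± 0.22, adjusted p = 0.00124). Hoxb5 read 3.36 and 4.12, then 8.75 and 7.40, then 9.06 and 8.35. It rose by 1.11 ± 0.20 (adjusted p = 0.00335) and 1.22 ± 0.20 (adjusted p = 0.0108), the latter call being lost without wild-type array 1 (adjusted p = 0.0755). Hoxc5 read 3.70 and 4.31, then 7.76 and 8.89, then 4.25 and 4.06. Only the Cyp26b1 knockout arrays of Hoxc5 stood apart, with a rise of 1.06 ± 0.20 (adjusted p = 0.00405) there and a change of 0.06 ± 0.20 (adjusted p = 0.876) in the double knockout.

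In paralog groups 6 to 8, which pattern the thoracic region, single genes followed different courses. Hoxb6 read 6.75 and 8.22 in wild type, 19.3 and 19.6 in the Cyp26b1 knockout, and 11.4 and 10.1 in the double knockout. It rose in the Cyp26b1 knockout (1.39 ± 0.17, adjusted p = 0.000650), and its double knockout arrays lay between the other genotypes (0.53 ± 0.17, adjusted p = 0.0839, which quantile normalization brought to 0.0436). Hoxa7 and Hoxb7 showed the reverse order. Hoxa7 read 113.5 and 100.2, then 114.1 and 79.5, then 187.6 and 170.6, and Hoxb7 read 63.2 and 63.0, then 71.8 and 66.3, then 148.4 and 125.6. For both genes the double knockout arrays were above all other arrays. Hoxb7 rose there by 1.11 ± 0.11 (adjusted p = 0.00229), with 0.13 ± 0.11 (adjusted p = 0.367) in the Cyp26b1 knockout. Hoxa7 rose there by 0.75 ± 0.17 (adjusted p = 0.0335), a call lost without any 1 of the 4 wild-type and double knockout arrays (adjusted p from 0.0752 to 0.183), without a filter on dim probes (adjusted p = 0.0728) and without the intensity trend (adjusted p = 0.0789).

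Hoxb8 was close to background. It read 0.366 and 0.334 in wild type, 3.09 and 1.97 in the Cyp26b1 knockout, and 1.30 and 0.816 in the double knockout, and only the Cyp26b1 knockout arrays were well above background. It rose at least 1.49-fold in the Cyp26b1 knockout (adjusted p = 0.00122), a call lost with the mean of its 2 probes (adjusted p = 0.286). It was counted as higher in the double knockout too (adjusted p = 0.0477), but neither group was well above background there, so no fold is given, and that call was lost under 9 of the 13 alternatives that gave it a test. Hoxc8 read 10.4 and 7.77, then 6.34 and 5.04, then 9.35 and 8.49. Its fall in the Cyp26b1 knockout (-0.67 ± 0.22, adjusted p = 0.0355) was lost without wild-type array 1 (adjusted p = 0.216), without Cyp26b1 knockout array 2 (adjusted p = 0.151), with normexp (adjusted p = 0.154) and without the filter on dim probes (adjusted p = 0.0779). Hoxd8 read 124.8 and 123.5, then 104.0 and 116.4, then 114.9 and 106.6, and was not called.

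**Figure D3:**
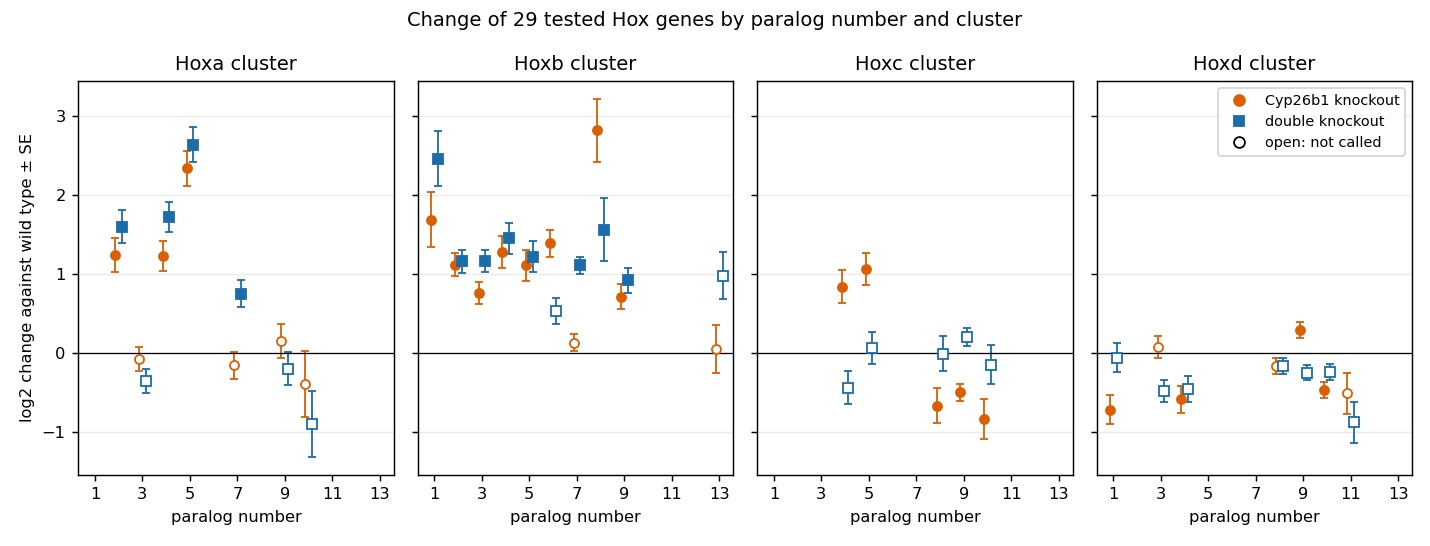
Log2 change against wild type, with its SE, of 29 of the 30 tested Hox genes by paralog number, 1 panel per cluster, for the Cyp26b1 knockout (circles) and the double knockout (squares). Filled symbols were called at an adjusted p under 0.05, and the filled symbols of the Hoxa and Hoxb panels are all above 0; Hoxb1 and Hoxb8 are drawn at measured changes from wild-type levels below background.

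The posterior genes, of paralog groups 9 to 13, pattern the lumbar and tail regions, the limbs and the reproductive ducts. Of 15 with a probe, 9 were tested. In the Cyp26b1 knockout 2 rose and 3 fell (55.6% called, near the 51.2% of all features). In the double knockout 1 rose (11.1% called, near the 12.0% of all features). That one was Hoxb9, which read 41.5 and 30.9 in wild type, 57.6 and 59.5 in the Cyp26b1 knockout, and 73.3 and 62.5 in the double knockout. It rose by 0.71 ± 0.16 (adjusted p = 0.00858) and 0.92 ± 0.16 (adjusted p = 0.0134), and its other probe gave 0.72 ± 0.15 (adjusted p = 0.00681) and 0.92 ± 0.15 (adjusted p = 0.0117). Wild-type array 2 was the lowest, and without it neither call of the brightest probe held (adjusted p = 0.0517 and 0.0745). The second was also lost without double knockout array 1 (adjusted p = 0.0554).

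Hoxd9, a limb and trunk gene, was bright in all genotypes, at 229.7 and 232.0 in wild type, 285.8 and 277.5 in the Cyp26b1 knockout, and 209.3 and 179.2 in the double knockout. Its 2 probes shared an order but not a size. The brightest rose in the Cyp26b1 knockout by 0.29 ± 0.10 (adjusted p = 0.0415), which did not hold when any 1 of its 4 arrays was left out (adjusted p from 0.0854 to 0.147). The other probe, at 51.2 and 57.7, then 141.2 and 130.4, then 50.4 and 40.1, rose there by 1.32 ± 0.14 (adjusted p = 0.000374). In the double knockout the changes were -0.25 ± 0.10 (adjusted p = 0.133) and -0.27 ± 0.14 (adjusted p = 0.232).

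The 3 posterior falls were in Hoxc9, Hoxc10 and Hoxd10, genes that set motor neuron identity in the thoracic and lumbar cord. Hoxc9 read 174.9 and 204.0 in wild type, 139.2 and 127.7 in the Cyp26b1 knockout, and 228.1 and 205.5 in the double knockout. Hoxd10 read 101.3 and 105.7, then 75.2 and 73.9, then 91.3 and 83.8, and Hoxc10 read 6.05 and 9.25, then 4.55 and 3.82, then 6.45 and 7.07. In each of these genes both Cyp26b1 knockout arrays were the lowest of the 6. Hoxd10 fell by 0.47 on the log2 scale (SE 0.10, adjusted p = 0.00532). Hoxc9 fell by 0.50 (SE 0.11, adjusted p = 0.00773), but not without wild-type array 2 (adjusted p = 0.0589). Hoxc10 fell by 0.84 (SE 0.25, adjusted p = 0.0250), a call lost without wild-type array 2 (adjusted p = 0.166) and without Cyp26b1 knockout array 2 (adjusted p = 0.106), among other settings.

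The remaining tested posterior genes were not called against wild type. Hoxa9 read 11.3 and 16.2 in wild type, 14.5 and 15.4 in the Cyp26b1 knockout, and 12.9 and 10.7 in the double knockout. Hoxa10, a gene of the reproductive tract, read 5.30 and 14.1, then 6.73 and 6.37, then 5.40 and 3.95. Its wild-type arrays lay on both sides of the Cyp26b1 knockout arrays. Without the lower of them, wild-type array 1, Hoxa10 was called lower in both knockouts (-1.10, adjusted p = 0.0289, and -1.61, adjusted p = 0.0408). Without wild-type array 2 the changes were 0.31 and -0.20, neither of them called. Hoxd11 read 3.41 and 4.27, then 2.69 and 2.68, then 2.37 and 1.82, with all 4 knockout arrays below wild type and changes of -0.51 ± 0.26 (adjusted p = 0.139) and -0.88 ± 0.26 (adjusted p = 0.0694, or 0.0444 without the intensity trend). Hoxb13, a gene of the tail and the prostate, read 2.56 and 3.15, then 2.84 and 3.03, then 7.30 and 4.31. Only its double knockout arrays were apart (0.98 ± 0.30, adjusted p = 0.0751, or 0.0490 with quantile normalization and 0.0395 without double knockout array 2).

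Most of the genes that could not be tested were also posterior. Hoxc12, Hoxc13, Hoxd12 and Hoxd13 were not well above background on any array. Hoxa11, of the uterus and vas deferens, passed on 1 wild-type array only, where it read 4.12. Hoxa13, of the digits and the genital tubercle, passed on 1 double knockout array only, where it read 3.80 beside 0.256 to 0.785 on the other arrays. Hoxa6, the one untested gene outside this range, passed on 1 array of each genotype and read 1.48 to 2.89.

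Across paralog numbers the log2 change tended downward in the Hoxa cluster and, less so, in the Hoxb cluster. Over 8 Hoxa genes Pearson's r between paralog number and change was -0.67 in the Cyp26b1 knockout and -0.70 in the double knockout, and over 10 Hoxb genes it was -0.33 and -0.49. Over 7 Hoxd genes it was 0.22 and -0.37. Over 5 Hoxc genes it was -0.95 and 0.48. The Hoxb values take Hoxb1 and Hoxb8 at measured changes from wild-type levels below background, and r without these genes was not computed. In the Cyp26b1 knockout the largest measured Hoxb change was that of Hoxb8. The rises of Hoxc4 and Hoxc5 and the falls of Hoxc8, Hoxc9 and Hoxc10 belonged to the Cyp26b1 knockout. No Hoxc gene was called in the double knockout, where 12.0% of all features were. These correlations describe genes measured on the same arrays, which are not independent, and carry no test. For the 12 Hoxc and Hoxd genes the double knockout changes ran from -0.88 to 0.20. Of the 7 Hoxd genes, 0 had a change above 0 there (-0.88 to -0.06), beside 47.9% of all features, and none was called. The 95% interval of the double knockout change of Hoxd4, -0.85 to -0.07, held the change of -0.59 that it showed in the Cyp26b1 knockout. Those of Hoxc8 (-0.52 to 0.50), Hoxc9 (-0.06 to 0.46), Hoxc10 (-0.73 to 0.43) and Hoxd1 (-0.49 to 0.37) did not hold theirs. That of Hoxd10 (-0.47 to -0.02) reached its Cyp26b1 knockout change of -0.47. The intervals leave out the error of the Cyp26b1 knockout change, so they are not a test between the knockouts. The direct test called neither Hoxc10 (0.70 ± 0.25, adjusted p = 0.0567) nor Hoxd10 (0.23 ± 0.10, adjusted p = 0.0885).

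The direct comparison of the arrays labelled double knockout with those labelled Cyp26b1 knockout asks what differed where Stra8 was deleted as well. Here 8 of the 30 tested Hox genes were higher in the double knockout, 6 were lower and 16 were not called, beside 43.1% of all features called, 25.5% higher and 17.6% lower. The share of called Hox genes, 46.7%, was thus near that of all features. The number higher was 3 without Cyp26b1 knockout array 2, 4 without Cyp26b1 knockout array 1 or double knockout array 1, and 5 without wild-type array 2 or double knockout array 2. Most of the low-numbered Hoxa and Hoxb genes showed no called difference. Among the 11 of paralog groups 1 to 6, 2 were higher, Hoxb3 among them, and 1 lower (Hoxb6). These 11 had a median log2 change of 0.30 with 9 above 0, beside 0.09 and 57.1% above 0 for all features. The lack of a call does not show that a gene was alike in the 2 knockouts.

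Differences upward were called in Hoxb7 (0.98 ± 0.11, adjusted p = 0.000970), Hoxb13 (0.93 ± 0.30, adjusted p = 0.0386) and Hoxa7 (0.91 ± 0.17, adjusted p = 0.00524). Hoxc9 was higher by 0.70 ± 0.11 (adjusted p = 0.00276), and Hoxc8 (0.66 ± 0.22, adjusted p = 0.0441) and Hoxd1 (0.66 ± 0.18, adjusted p = 0.0229) were also higher. In these last 3 genes the Cyp26b1 knockout was the genotype that stood apart from wild type. Downward, Hoxc4 differed by -1.27 ± 0.21 (adjusted p = 0.00313), Hoxc5 by -1.0 ± 0.20 (adjusted p = 0.00682) and Hoxb6 by -0.86 ± 0.17 (adjusted p = 0.00636), all genes that had risen in the Cyp26b1 knockout. Hoxd9 (-0.54 ± 0.10, adjusted p = 0.00454) and Hoxd3 (-0.55 ± 0.14, adjusted p = 0.0192) were lower too. Hoxb8 was at least 1.23-fold lower (adjusted p = 0.0383).

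Of these 14 calls, 7 held under every alternative with a test other than normexp background correction fitted on all spots, and 4 of the 7 held under that one too. Those of Hoxb3 (0.40 ± 0.14, adjusted p = 0.0492), Hoxb8, Hoxb13, Hoxc8, Hoxd1 and Hoxd3 were lost on leaving out single arrays of these genotypes, with adjusted p up to 0.145, 0.169, 0.183, 0.174, 0.0932 and 0.0802. The other Hoxb3 probe went the opposite way (-1.0 ± 0.16, adjusted p = 0.00283). For the calls against wild type, the alternatives were counted without normexp on all spots and without the other probes of a gene. Under every one of these with a test, 12 of 21 calls in the Cyp26b1 knockout and 9 of 13 in the double knockout held. The Hoxb3 call in the double knockout, which is among the 9, was lost with its other probe (-0.03 ± 0.16, adjusted p = 0.932). With normexp on all spots included, 0 and 1 held.

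**Figure D4:**
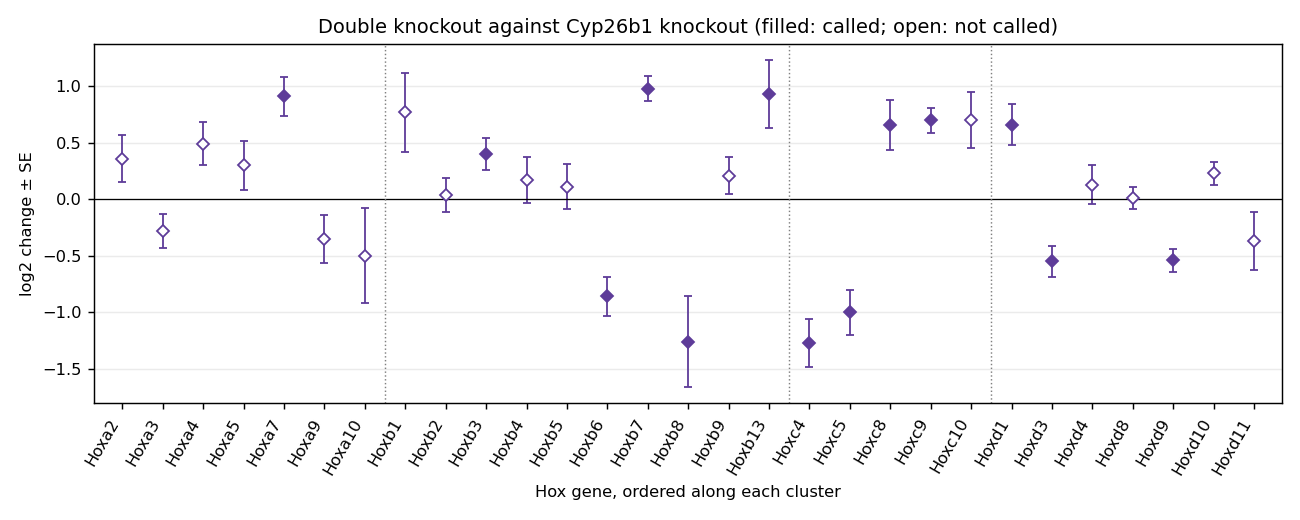
Log2 change, with its SE, of 29 of the 30 tested Hox genes in the arrays labelled double knockout against those labelled Cyp26b1 knockout, in cluster order with dotted lines between clusters. Filled diamonds were called: 7 lie above 0 and 6 below. Most Hoxa and Hoxb genes of paralog groups 1 to 6 are open, and most lie above 0.

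Genes around the Hox pathway were read from lists chosen with earlier results of these data known. Of 16 tested genes of the retinoic acid pathway, the targeted genes not among them, 11 rose and 2 fell in the Cyp26b1 knockout and 7 rose and 1 fell in the double knockout, beside 51.2% and 12.0% of all features called. Cyp26a1, another retinoic acid-degrading enzyme, read 2.27 and 1.12 in wild type, 39.1 and 53.7 in the Cyp26b1 knockout, and 56.1 and 49.7 in the double knockout. Rarb, a receptor gene that retinoic acid itself induces, rose by 1.95 ± 0.10 (adjusted p = 5.98e-05) and 1.90 ± 0.10 (adjusted p = 0.000252). Aldh1a1, a retinoic acid-synthesising enzyme, fell by 1.20 and by 1.0 on the log2 scale. Between the knockouts these genes differed by 0.21 ± 0.32, -0.04 ± 0.10 and 0.20 ± 0.09, none of them called.

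Of 6 Cdx and other ParaHox genes, which are relatives of the Hox genes and in the case of Cdx regulate them, Cdx1 and Gsx1 could be tested. Cdx1 read 0.365 and 0.333 in wild type, 1.36 and 5.20 in the Cyp26b1 knockout, and 0.518 and 0.421 in the double knockout. It was well above background on the 2 Cyp26b1 knockout arrays only, which differed widely, and it was at least 1.61-fold higher there than in wild type (adjusted p = 0.00630). Gsx1 rose there by 0.85 ± 0.20 (adjusted p = 0.00967, or 0.0721 without wild-type array 2). Neither was called in the double knockout, and both were lower there than in the Cyp26b1 knockout, Cdx1 at least 1.33-fold (adjusted p = 0.0150) and Gsx1 by -1.21 ± 0.20 on the log2 scale (adjusted p = 0.00313). The Cdx1 difference was lost without Cyp26b1 knockout array 2 (adjusted p = 0.0541) or without double knockout array 2 (adjusted p = 0.0527).

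Of the 9 Pbx, Meis and related TALE partner genes, 1 rose and 2 fell in the Cyp26b1 knockout and 1 fell in the double knockout, again beside 51.2% and 12.0% of all features called. Pbx3 rose by 0.42 ± 0.10 (adjusted p = 0.0108, or 0.0772 without wild-type array 2) in the former and fell by 0.49 (SE 0.10, adjusted p = 0.0237) in the latter, a call lost without either wild-type array (adjusted p = 0.135 and 0.0790) or double knockout array 2 (adjusted p = 0.0991). Meis2 fell in the Cyp26b1 knockout (-0.51 ± 0.08, adjusted p = 0.00177), and its change in the double knockout was 0.06 ± 0.08. Pbx4 fell in the Cyp26b1 knockout by 0.59 (SE 0.16, adjusted p = 0.0157), but not with the mean of its probes (adjusted p = 0.462), with normexp (adjusted p = 0.0956), or without wild-type array 2 (adjusted p = 0.120) or Cyp26b1 knockout array 2 (adjusted p = 0.0595).

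Genes that flank the clusters were called in both directions. Of 12 tested neighbours, 2 rose and 3 fell in the Cyp26b1 knockout and 1 rose and 1 fell in the double knockout, with median log2 changes of 0.09 and 0.06 and with 51.2% and 12.0% of all features called. Ttll6, which lies beside the Hoxb cluster, fell by 1.91 (SE 0.33, adjusted p = 0.00274) and by 1.59 (SE 0.33, adjusted p = 0.0243), the second call being lost without either wild-type array or double knockout array 1 (adjusted p up to 0.156). Mtx2, beside the Hoxd cluster, fell by 0.48 in the Cyp26b1 knockout (SE 0.09, adjusted p = 0.00395), but not with the mean of its probes (adjusted p = 0.336). Hibadh, beside the Hoxa cluster, was not called in either, but it was with quantile normalization, higher in the Cyp26b1 knockout (0.31, adjusted p = 0.0144) and lower in the double knockout (-0.33, adjusted p = 0.0430), and its difference between the knockouts was called (-0.49 ± 0.10, adjusted p = 0.00693). The Cyp26b1 knockout call was also gained without Cyp26b1 knockout array 2 (adjusted p = 0.0283), and the double knockout call without either Cyp26b1 knockout array (adjusted p = 0.0460 and 0.0468) and with only the 2 genotypes compared in the fit (adjusted p = 0.0434).

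Whole gonads hold several cell types, and in such RNA fewer cells of a type and less RNA per cell cannot be told apart. Sertoli cell markers, which mark a fetal testis, were present: 6 of 6 were tested, with a summed level from 2779.0 to 3149.5 in wild type, 3425.4 to 3761.3 in the Cyp26b1 knockout and 3501.4 to 3902.1 in the double knockout. Markers of the mesonephros and its ducts, where posterior Hox genes are active, had 9 of 9 genes tested and summed to 248.8 to 308.1 in wild type, 139.1 to 195.5 in the Cyp26b1 knockout and 176.1 to 183.4 in the double knockout. Of these 9, 4 fell and 1 rose in the Cyp26b1 knockout, and 2 fell in the double knockout. Of 4 tested fetal Leydig cell markers 3 fell, and of 6 interstitial markers 4 fell and 1 rose, in the Cyp26b1 knockout, the arrays in which the 6 falls of Hox genes were seen. Of all features, 29.9% were lower and 21.3% higher in the Cyp26b1 knockout, and 6.56% were lower in the double knockout. The part of these cell types in the Hox results was not tested.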

How the data were processed

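Spots of 1-colour 44K arrays were read by the authors with the scanner's own software (Agilent Feature Extraction 9.5 in the submitters' processing notes, 9.5.3.1 per the file headers). The deposited files hold 1 array each, with spot intensities that this software had background-subtracted and detrended, per the file headers. The authors' deposited value table has a single column for each genotype and holds values that track a linear ratio; its centring and its scaling between arrays are unknown, and it was used as an alternative without a test.

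Control spots, and 25 probes without a usable spot on some array, were left out. The log2 processed signal of each array was taken relative to its 75th percentile. Of 41174 probes, 23374 matched 1 symbol of the RefSeq table by accession and 17800 none; unmatched probes were grouped by accession. The array's annotation uses an older genome build than that table, so only RefSeq promoter windows carry coordinates. A feature entered the tests if its brightest probe cleared background on each of the 2 arrays of some genotype. Genotypes were compared with limma 3.58.1 in R 4.3.3 (lmFit, and eBayes with an intensity trend; 3 residual and 4.34 prior degrees of freedom), two-sided, with Benjamini-Hochberg adjustment over all 21552 features. The number of arrays limits the precision: with 2 arrays a genotype, an exact permutation test cannot give a p below 0.333. The script was checked on simulated data.

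The Hox genes with a probe are named, except for 1 that is counted but not reported here, as are both targeted genes and up to 3 members, by smallest adjusted p, of the retinoic acid, ParaHox, TALE and neighbour lists; other lists are given as counts. The members and lists were chosen with earlier results of these data known. Other settings tried were the scaling, the background correction, the filter, the probe summary, the trend, the samples in the fit, a replicate block and leaving out each array.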

Additional observations from a re-analysis of the deposited data

How the results depend on the processing

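Of the calls that the low-numbered Hoxa and Hoxb genes gave against wild type, the counts stayed within 9 to 11 of 11 in the Cyp26b1 knockout and 8 to 10 in the double knockout under every alternative run other than normexp fitted on all spots, which gave 0 and 0. The number of lower Hox genes in the Cyp26b1 knockout, all of them Hoxc or Hoxd genes, was 3 with normexp background correction in place of 6, and leaving out single arrays it ran from 2 to 7 (2 to 6 for Hoxc and Hoxd). The number of higher Hoxc and Hoxd genes there ran from 1 to 3. In the double knockout the number of lower Hox genes was 1 without the intensity trend, and from 0 to 2 leaving out single arrays (0 to 1 for Hoxc and Hoxd). Without the intensity trend, 1 Hoxc or Hoxd gene was likewise lower.

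Between the knockouts, the number of higher Hox genes was 5 with normexp and 3 to 6 leaving out single arrays. For Hoxa and Hoxb genes of paralog groups 1 to 6 it was 1 without the filter on dim probes, 1 with the mean of all probes and 1 with only the 2 genotypes compared in the fit, and 0 to 1 leaving out single arrays. For Hoxc and Hoxd genes it was 5 with the median of probes above background as the scale, 1 with normexp and 1 to 3 leaving out single arrays.

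Over all features, the double knockout against wild type gave 743 higher and 822 lower without the filter on dim probes and 776 higher without the trend, in place of 1170 and 1413. Leaving out single arrays gave 295 to 1249 higher and 394 to 1474 lower. Between the knockouts 10362 were higher without the filter, in place of 5502.

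Directions turned for Hoxa3 in the Cyp26b1 knockout with the mean of its probes (0.98) or its other probe (2.05), and in the double knockout with the mean of its probes (0.63) or the other probe (1.62), the other probe being measured against a wild-type level below background. They turned for Hoxb1 in the Cyp26b1 knockout in the authors' deposited table (-0.05), for Hoxb3 with its other probe in the double knockout (-0.03) and between the knockouts (-1.0, or -0.30 with the mean of probes), and for Pbx4 between the knockouts with the mean of probes (-0.06). The cause was not tested.

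A fit with the array number as a replicate block gave the same Hox counts as the fit without it, 15 higher and 6 lower in the Cyp26b1 knockout and 13 and 0 in the double knockout. The numbers pair nothing that the labels name: the differences between array 1 and array 2 correlated at 0.12 to 0.23 between genotypes. A slide block was not run, since no slide held arrays of over 1 genotype. Normexp with an offset shrinks the changes of dim genes, and it was run on the median spot signal, the one the files hold, without marked spots and spots of extreme local background. Local background reached 35409.5 on wild-type array 2 and 3325 on double knockout array 1, and on all spots normexp gave 0 higher and 0 lower Hox genes in the Cyp26b1 knockout, 2 and 0 in the double knockout, and 3 and 1 between them.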

Other observations

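Regulators of Hox chromatin did not move in 1 direction. Of 22 tested polycomb genes, which hold Hox clusters silent, 6 rose and 7 fell in the arrays labelled Cyp26b1 knockout and 1 rose and 2 fell in those labelled double knockout, with median log2 changes of -0.03 and 0.02. Of 10 tested trithorax and histone demethylase genes, which keep them active, 3 rose and 3 fell in the Cyp26b1 knockout and none was called in the double knockout, with medians of -0.25 and -0.05. Of 5 tested regulators of posterior Hox genes, 1 rose and 1 fell in the Cyp26b1 knockout and none was called in the double knockout. These counts stand beside 51.2% and 12.0% of all features called.

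Markers of the other cell types of a dissected gonad were counted in the same way, as higher and lower in the Cyp26b1 knockout and then in the double knockout. Beside these counts, 51.2% and 12.0% of all features were called. Of 6 germ cell markers 2 rose and 2 fell, then 2 and 1. Of 6 Sertoli cell markers 4 rose and 1 fell, then 2 and 1. Of 5 endothelial markers 3 rose and 2 fell, then 1 and 0. Of 5 blood markers 1 rose and 1 fell, then none was called. Of 2 tested adrenal markers 1 fell, then 1. Of 3 tested skeletal muscle markers 1 fell, then 1, and of 2 tested neural crest markers 1 rose and 1 fell, then 1 and 0.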
